A study of Rattus norvegicus with 6 samples.

Results

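Chromosome 2 carried the lowest density of accessible regions among the 20 autosomes in a list of open chromatin from the kidneys of Dahl salt-sensitive rats. Its members were every region of the merged list whose chromosome column names chromosome 2, 11805 of 151302 regions, or 7.80% of the list. The list came from ATAC-seq of 6 kidney libraries of the strain labelled Dahl S (SS/Jr), an inbred rat that becomes hypertensive on salt. Of these, 3 animals received 1,3-butanediol at 20% in water and 3 had no treatment, and the series describes supplementation for 6 weeks in males and females. The labels give neither the sex nor the age of the animal behind a library. 1,3-butanediol is an alcohol that the liver turns into β-hydroxybutyrate, a ketone body that also modifies histones.

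ATAC-seq uses a transposase that cuts into DNA free of nucleosomes, so a region marks an open promoter, enhancer or insulator. Mammalian chromosomes alternate between gene-rich stretches with many open sites and gene-poor stretches with few, and the number of such sites on a chromosome therefore differs with what it carries. Of 26 genes of ketone metabolism, blood pressure and kidney function that were looked up, 15 lie on chromosome 2 and the others elsewhere, in a list drawn up with this chromosome in mind, so the count is no finding. The RefSeq gene table of the GRCr8 build places on it Oxct1, which activates acetoacetate so that tissues outside the liver can burn ketone bodies, and Hmgcs1 of the mevalonate pathway. It also places there the angiotensin receptor Agtr1b, the natriuretic peptide receptors Npr1 and Npr3, and the guanylate cyclase subunits Gucy1a1 and Gucy1b1, all with roles in salt handling or vascular tone. Positions in the list follow rn6, so no region was assigned to these genes, and the sequence of the regions was not analysed here.

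The list gave a position and a running name per region, and no read count, score or group of origin. The 3 treated and 3 untreated kidneys were therefore not compared, no error between animals can be given, and the depth of the libraries is unknown. Chromosome 2 was selected on its count of regions per Mb in this list, the lowest of the autosomes, so its density and the values that follow from it are descriptions with no test. The spread given below is the SD over the other 19 autosomes, which are not replicates. Because no gene has a value in the list, the tissue label could not be checked against kidney markers.

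Regions of chromosome 2 ran from 117129 to 266432902, a span of 266.3 Mb, with 44.3 regions per Mb. The other 19 autosomes averaged 59.3 ± 10.3 per Mb (SD), so chromosome 2 had 0.747 times their mean density. The autosomes nearest above it were chromosome 11 with 47.2 per Mb, chromosome 15 with 48.3 and chromosome 13 with 49.2. Chromosome 1, the autosome closest in length with a span of 282.6 Mb, had 59.98 per Mb. Open sequence made up 2.15% of the span of chromosome 2, against 2.95 ± 0.57% on the others. Without the empty stretches longer than 1 Mb, its density was 48.3 per Mb, still below all 19 others, which then averaged 62.6 ± 9.8.

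Per gene, chromosome 2 was not sparse. The gene table places 1398 protein-coding genes on it, which gave 8.44 regions per coding gene. Across the other autosomes this ratio averaged 6.98 ± 1.26, and only chromosome 6 with 9.46 and chromosome 18 with 8.64 were higher. Chromosome 17 with 8.42 and chromosomes 13 and 14 with 8.40 each were close behind. Chromosome 1, which has 3158 coding genes, had 5.37 regions per coding gene. When all annotated genes were counted, with non-coding genes and pseudogenes, chromosome 2 had 3.71 regions per gene against 3.37 ± 0.38, within 1 SD of the others, and 13 of 19 were lower. The genes were counted by chromosome name alone, since the gene table and the list are in different builds.

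**Figure D1:**
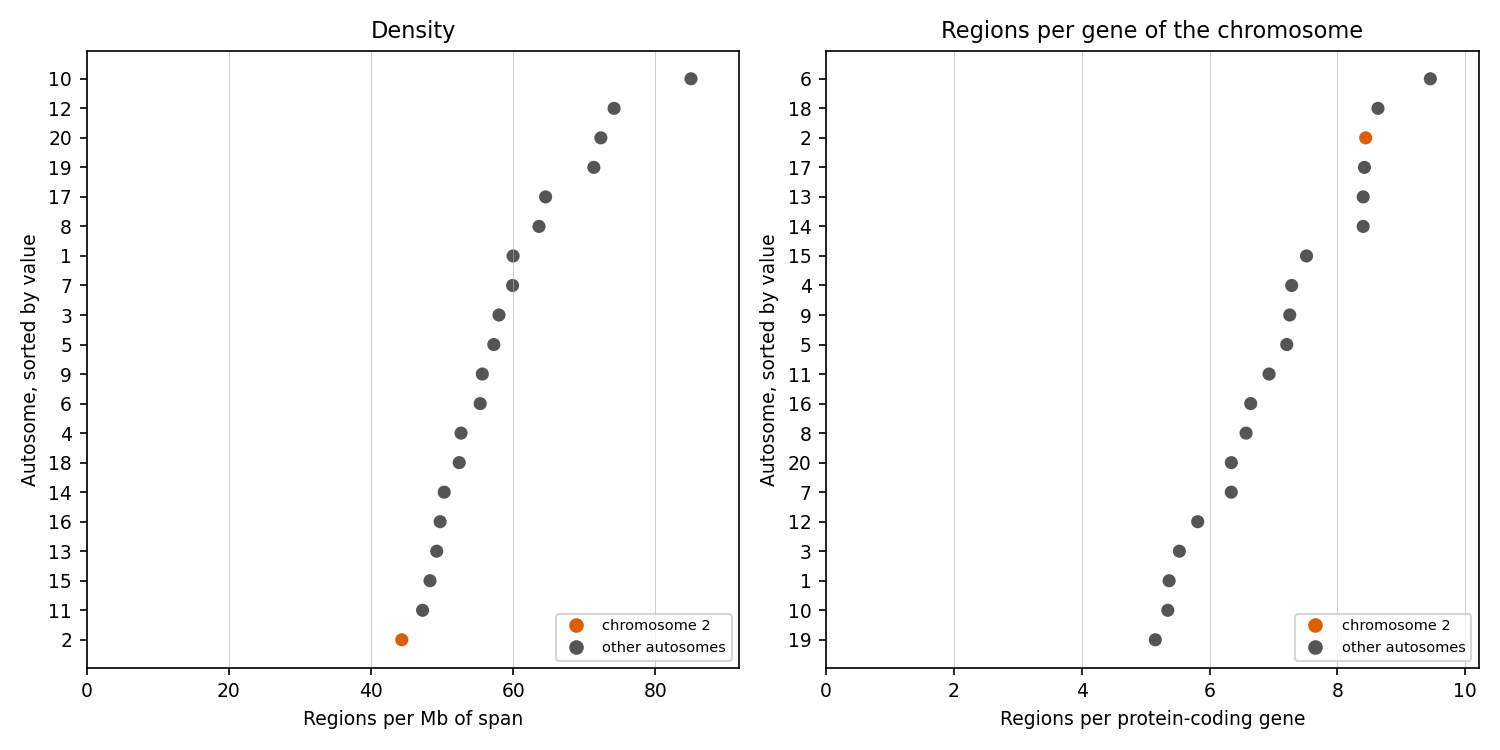
Each point is an autosome, sorted from low to high, with regions per Mb of span on the left and regions per protein-coding gene on the right, and chromosome 2 in orange. Chromosome 2 is lowest on the left at 44.3 and has 2 autosomes above it on the right at 8.44.

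CpG-rich promoters, which tend to be open in many tissues, gave a like picture. Among the RefSeq promoter sequences of coding genes on chromosome 2, 544 of 1359 were CpG-rich, or 40.0%, against 42.5 ± 4.8% on the others. A promoter was called CpG-rich when at least 50% of its bases were G or C and the ratio of observed to expected CpG was at least 0.6. Chromosome 2 thus had 21.7 regions per CpG-rich promoter, where the other autosomes averaged 17.6 ± 3.3 and 17 of 19 were lower. The numbers of promoter sequences and coding genes did not match by chromosome, with more promoters than genes on some, which limits this ratio and its rank. The reason for the mismatch was not examined. There were 1359 for 1398 coding genes on chromosome 2, 1027 for 1373 on chromosome 7 and 1054 for 936 on chromosome 9. Median GC content of these promoters was 53.7% on chromosome 2 and 55.1 ± 1.8% on the others.

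In whole 1-Mb windows, chromosome 2 had fewer regions at every percentile examined, with the largest relative shortfall at the lower quartile. Its 265 windows held a median of 35 regions, against 53 in the 2322 windows of the other autosomes pooled. The lower quartile was 9 against 18, the upper quartile 67 against 90, and the 90th percentile 105 against 125. Completely empty windows were not the main difference, since 6 windows, or 2.26%, held no region, against 43 windows or 1.85% elsewhere. Windows with 1 to 7 regions numbered 52 on chromosome 2, or 19.6%, against 266 or 11.5% elsewhere.

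Windows were classed by the quartiles of the other autosomes, as sparse with 18 regions or fewer, dense with 90 or more, and middle between these. On chromosome 2, 88 windows were sparse, or 33.2%, and 42 were dense, or 15.8%. Over the other 19 autosomes, 25.2 ± 7.8% of windows were sparse and 26.2 ± 8.5% dense. Dense windows were scarcer than on 18 of 19 autosomes, chromosome 11 being the exception with 15.7%. A higher share of sparse windows was found on 4 autosomes, up to 36.6% on chromosome 13, but on only 1 with 500-kb windows or with windows shifted by 500 kb. Within its dense windows chromosome 2 averaged 114.4 regions against 120.9 elsewhere, and within its middle windows 47.4 against 52.6. Its sparse windows averaged 6.15 against 7.55, so windows of the same class are not fully matched in density. The mean window count was 14.1 regions below that of the pooled others. With these cuts, 69.4% of this difference fell to the shares of the 3 classes and 30.6% to lower counts within classes. The classes are cuts of these same counts, so other cuts would give another split.

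Regions of chromosome 2 were gathered in comparatively few windows. Counting from the fullest down, 20.8% of its windows sufficed to hold 50% of its regions, the lowest share of the 20 autosomes, where the others averaged 24.9 ± 2.8%. The fullest 10% of windows held 27.5% of the regions, against 24.2 ± 2.7%, and only chromosome 16 had more, with 28.9%. Its fullest windows nonetheless reached counts found on other chromosomes. The window chr2:225000001-226000000 held 172 regions, with 9.06% of its bases open, and chr2:187000001-188000000 held 167. Next came chr2:94000001-95000000 with 156, chr2:198000001-199000000 with 150 and chr2:210000001-211000000 with 145. Elsewhere, 15 of 2322 windows, or 0.646%, exceeded the fullest window of chromosome 2.

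**Figure D2:**
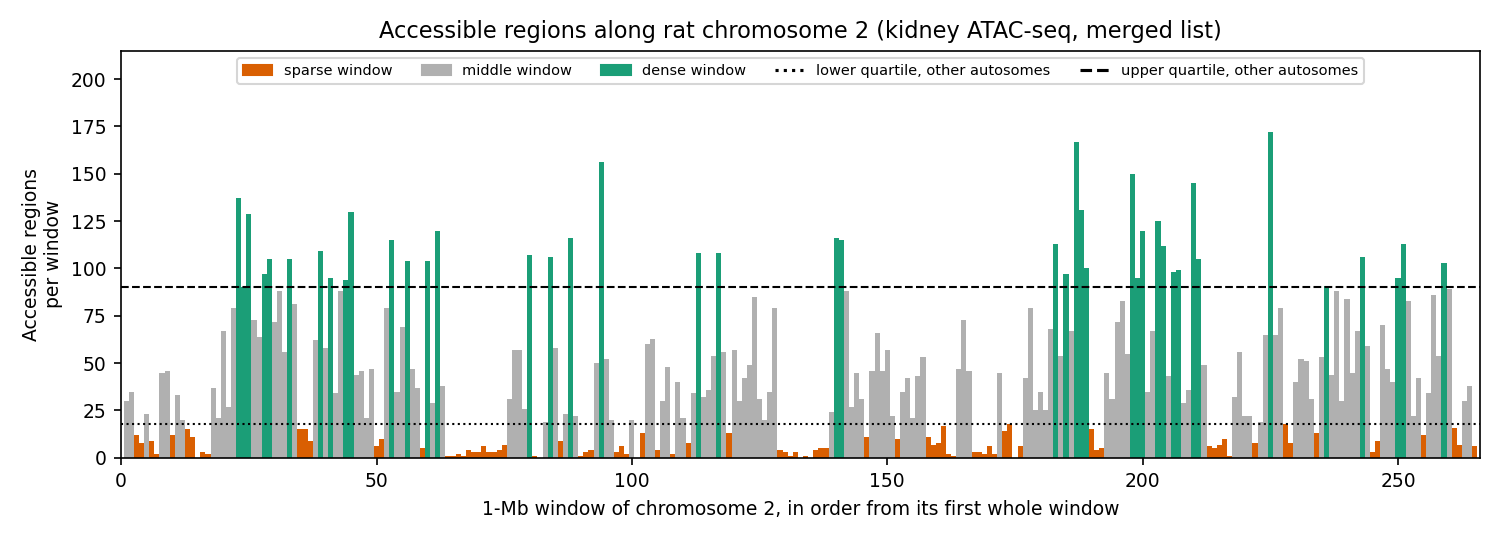
Bars give the number of accessible regions in each of the 265 whole 1-Mb windows of chromosome 2, in order, coloured by class, with dotted and dashed lines at the quartiles of the other autosomes, 18 and 90. Sparse windows form runs of up to 12, most of all in the middle of the chromosome, while dense windows stand alone or in groups of at most 3.

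Along the chromosome, density was lower in the middle than at either side. Cut into 4 segments of equal length, the span held 50.02, 32.4, 41.4 and 53.5 regions per Mb from first to last. In the second segment 42.4% of windows were sparse and 9.09% dense, and in the fourth segment 22.7% and 19.7%. In blocks of 10 Mb, the mean ranged from 15.9 per Mb at chr2:131000001-141000000 to 87.3 at chr2:21000001-31000000. A second rich stretch ran over 3 successive blocks from 181000001 to 211000000, with 83.7, 66.0 and 78.9 per Mb. At its start the chromosome was poor, with a mean of 22.2 regions over its first 10 whole windows, where the other autosomes averaged 56.6 ± 31.7 and 15 of 19 were higher. Its last 10 whole windows averaged 46.3, against 76.3 ± 25.4, and 17 of 19 were higher. Median width differed little between these segments, at 386, 393, 388 and 389 bp.

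The longest sparse domain was chr2:64000001-76000000, 12 consecutive windows with 1 to 7 regions each and 38 in all. Their median width was 322 bp, none reached 1 kb, and 10.5% had a neighbour within 1 kb. The next, chr2:129000001-139000000, spanned 10 windows with 0 to 5 regions each. Its 26 regions had a median width of 287 bp, with none of 1 kb or more and none with a neighbour within 1 kb. The window before it held 79 regions and the window after it 24. The third domain, chr2:158000001-164000000, held 46 regions in 6 windows, with 2 of 1 kb or more. Sparse runs of 5 windows or more numbered 6 and took in 16.2% of the windows of chromosome 2, against 9.56% of the windows of the other autosomes. Among those, chromosome 13 had a run of 22 sparse windows, the only autosome with a longer run than chromosome 2, and chromosome 14 had an equal run of 12. With 2-Mb windows 2 autosomes had a longer run, and with 500-kb windows none had.

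Dense domains were short. None exceeded 3 windows, and the 3 of that length were chr2:23000001-26000000 with 356 regions, chr2:187000001-190000000 with 398 and chr2:198000001-201000000 with 365. On 15 of the other 19 autosomes the longest dense run was longer, up to 9 windows on chromosome 19, and chromosomes 11, 15, 16 and 18 also stopped at 3. No run of chromosome 2 reached 5 windows, whereas runs that long held 4.61% of the windows elsewhere. The 3 domains differed in width. Median width was 374 bp in the first, 435 bp in the second and 400 bp in the third, and regions of 1 kb or more numbered 18, 49 and 33. Adjacent windows of chromosome 2 had counts that varied together with a Pearson r of 0.45 over 264 pairs, and the other autosomes ranged from 0.33 to 0.72. Neighbouring windows share sequence context and one catalogue, so this is a description.

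Stretches without any region longer than 1 Mb numbered 16 on chromosome 2, more than on any other autosome, where chromosomes 1 and 13 had 11 each. They took up 8.20% of its span, against 5.49 ± 3.40% on the others, within 1 SD of their mean, and chromosomes 13, 14 and 15 had higher shares. The longest, chr2:132822068-134658284, measured 1836217 bp, and chr2:159038550-160873568 was almost as long at 1835019 bp. They were followed by chr2:190258062-191862593 with 1.60 Mb, chr2:65131488-66696901 with 1.57 Mb and chr2:81511200-83068870 with 1.56 Mb. In length these were not unusual, since 9 of 19 autosomes had a longer stretch.

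Chromosome 2 ranked first for the share of its span in gaps above 50 or 100 kb, but not at longer limits. These shares are cumulative and include the longest gaps, so they do not single out gaps of intermediate length. Gaps above 50 kb occupied 62.2% of its span and gaps above 100 kb occupied 49.6%, both higher than on all 19 other autosomes, which averaged 51.6 ± 6.5% and 38.7 ± 6.2%. At 500 kb its share was 18.99%, and 2 autosomes were higher, and at 1 Mb 3 were higher. The median gap between neighbours was 6157 bp, the longest of the 20 autosomes, against 5585 ± 352 bp. The upper quartile of gaps was 15012 bp, against 12869 ± 1345 bp. At the short end, the lower quartile was 1892 bp, within 1 SD of the others at 1826 ± 152 bp.

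**Figure D3:**
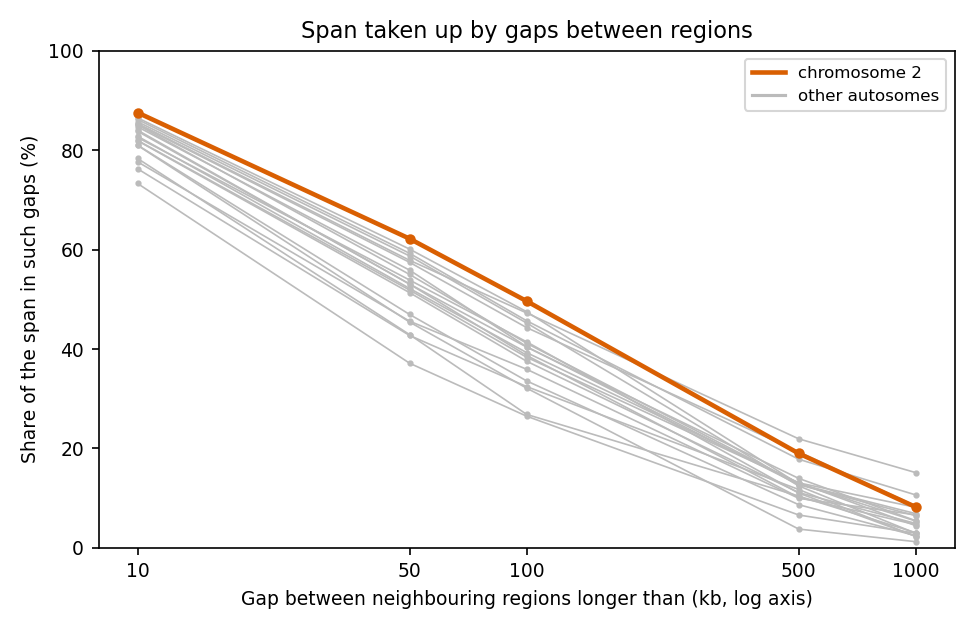
Lines give, for each autosome, the share of the span that lies in gaps longer than the length on the log axis, with chromosome 2 in orange. Chromosome 2 is the highest line at 10, 50 and 100 kb, with 87.6%, 62.2% and 49.6%, and is passed by 2 autosomes at 500 kb and 3 at 1 Mb.

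At short range, regions of chromosome 2 were as crowded as those of other autosomes. A neighbour within 1 kb was present for 3757 regions, or 31.8%, against 32.0 ± 1.4%, and 10 of 19 autosomes were higher. With regions of at least 300 bp alone the share was 21.7% against 23.0 ± 1.8%, and 15 were higher. Runs of regions less than 500 bp apart took in 21.8% of its regions, the same as the mean of the others at 21.8 ± 1.2%. These runs numbered 1205, of which 1058 had 2 members, 130 had 3, 14 had 4 and 3 had 5. The runs of 5 were chr2:88501466-88504597, chr2:224987622-224990380 and chr2:226659248-226663290, between 2759 and 4043 bp long.

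Neighbours less than 10 kb apart were also joined into islands. Chromosome 2 had 4182 islands, or 15.7 per Mb, the lowest of the 20 autosomes, against 18.4 ± 1.7 per Mb. Each held 2.82 regions on average, also the lowest, against 3.20 ± 0.31. Inside islands of at least 2 regions, however, there were 306.1 regions per Mb, above the 297.4 ± 5.1 of the others and exceeded by 1 of 19. That value runs higher where islands are small, since an island of few regions has fewer gaps per region. The median of gaps under 10 kb was 3076 bp, within 1 SD of the others at 3141 ± 102 bp. Islands were thus fewer and held fewer regions, with gaps of like length between their regions. Gaps inside islands are under 10 kb by definition, which limits how far their median can differ between chromosomes. Of all gaps on chromosome 2, 64.6% were under 10 kb, the lowest share of the 20 autosomes, against 68.5 ± 2.8%. Single regions made up 16.6% of all regions, against 13.6 ± 2.1%, level with chromosome 11 and above the other 18. Islands of 20 regions or more held 6.19%, against 9.42 ± 1.98%. The fullest, chr2:84263370-84437729, had 44 regions in 174.4 kb, and chr2:187799993-187930323 had 38 in 130.3 kb.

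Lone regions were more frequent than elsewhere. On chromosome 2, 138 regions, or 1.17%, lay more than 100 kb from any other, the highest share of the 20 autosomes, against 0.65 ± 0.22%. The most isolated was chr2:134658285-134658523, 239 bp wide, with 1.84 Mb of empty span before it and 1.52 Mb after it. Among the 10 most isolated, singled out after their values were seen, none was wider than 404 bp and 4 had the smallest width in the list, 200 bp. The next, chr2:131377274-131377559, lay in the same sparse domain, 718865 bp from its nearest neighbour.

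Regions of chromosome 2 were slightly narrower than those elsewhere. Median width was 389 bp, with quartiles at 281 and 584 bp, against a median of 399.5 ± 7.1 bp over the other autosomes, and only chromosome 9 with 387 bp was lower. The upper quartile was the lowest of the 20. Regions of 1 kb or more numbered 821, or 6.95% of its regions, against 7.79 ± 0.68%, and chromosomes 9 and 13 had lower shares. Per Mb, these wide regions were the sparsest of the 20 autosomes, with 3.08 against 4.67 ± 1.18. The smallest width, 200 bp, was held by 566 regions, or 4.79%, against 4.60 ± 0.47%.

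Width rose with the density of the window on chromosome 2, and the median rose over all 3 classes on 18 of the other 19 autosomes. In sparse windows of chromosome 2 the median width was 351 bp, in middle windows 386 bp and in dense windows 397 bp. The corresponding means over the other autosomes were 348.7 ± 16.6, 390.8 ± 7.5 and 410.6 ± 7.9 bp. Chromosome 2 was thus low in dense windows, where 18 of 19 autosomes had a higher median, and in middle windows, where 15 had, while in sparse windows 9 were above it and 9 below. Regions of 1 kb or more followed the same order, at 4.07% in sparse, 6.71% in middle and 7.60% in dense windows, against 8.45 ± 0.68% in dense windows elsewhere. In sparse windows of chromosome 2, 4.81% of 541 regions had the smallest width, against 7.27 ± 1.82% elsewhere, level with the lowest other autosome.

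**Figure D4:**
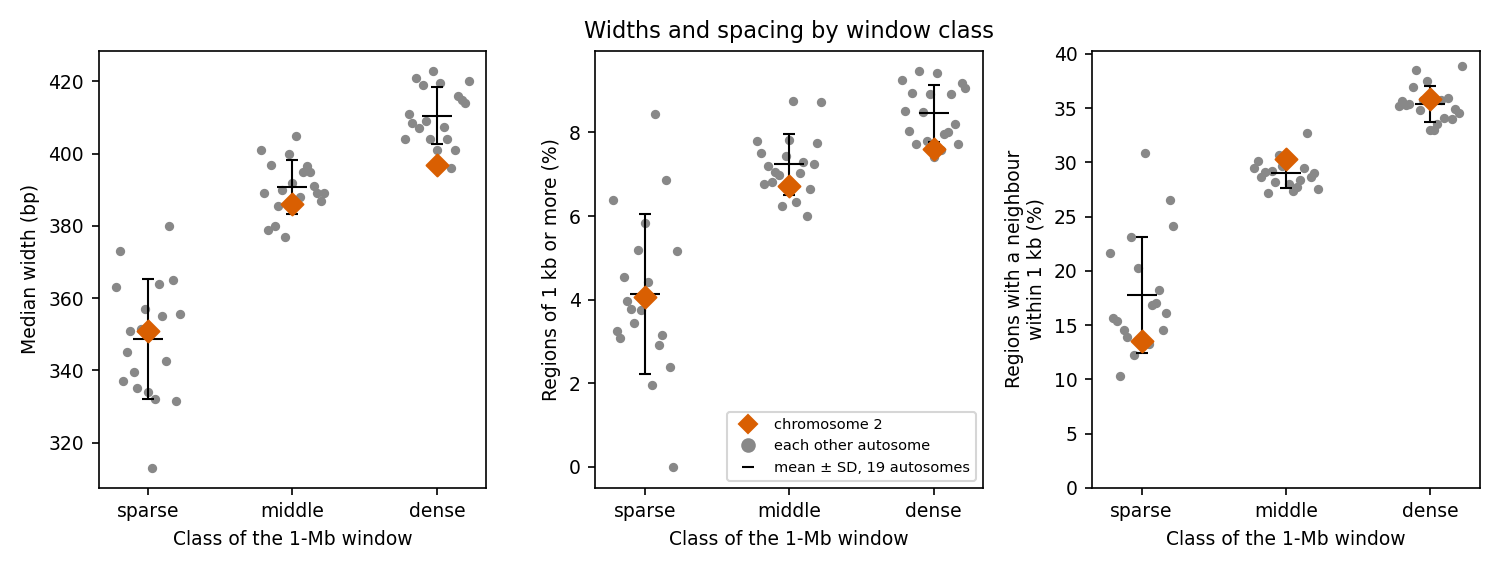
Panels give median width in bp, the percentage of regions of 1 kb or more and the percentage with a neighbour within 1 kb, by class of the 1-Mb window, for chromosome 2 (orange diamonds) and each other autosome (grey points, with mean and SD as black bars). On chromosome 2 all 3 measures rise from sparse to dense windows, as do the means of the others, and it is low in width in dense windows, with a median of 397 bp.

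Crowding within classes showed no shortfall in middle and dense windows. A neighbour within 1 kb was present for 30.4% of regions in middle windows, against 29.0 ± 1.3% elsewhere, where 17 of 19 autosomes were lower. In dense windows the share was 35.8% against 35.4 ± 1.7%. In sparse windows it was 13.5% against 17.8 ± 5.3%, within 1 SD, but 16 of 19 autosomes were higher. The nearest neighbour lay a median of 15606 bp away in sparse, 2939 bp in middle and 1905 bp in dense windows. The other autosomes averaged 11981 ± 3743, 2963 ± 206 and 1923 ± 138 bp, and 15, 8 and 6 of 19 had a shorter distance.

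The 10 widest regions of chromosome 2 spanned 2187 to 2545 bp, and 7 of them lay in dense windows. The widest, chr2:225674115-225676659, was 2545 bp long and sat in the fullest window of the chromosome. It was followed by chr2:140617347-140619745 with 2399 bp and chr2:188398874-188401271 with 2398 bp, both in dense windows. The fourth, chr2:549221-551554 with 2334 bp, was unlike these. It lay close to the start of the chromosome, with 62705 bp to its nearest neighbour, in an incomplete window that belongs to no class. The remaining 6 were chr2:77631683-77633922 (2240 bp), chr2:80767220-80769448 (2229 bp), chr2:200809026-200811245 (2220 bp), chr2:62149359-62151552 and chr2:122875199-122877392 (2194 bp each) and chr2:210087739-210089925 (2187 bp).

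Of the 19 regions of 2 kb or more, 10 lay in dense windows, 8 in middle windows, 1 in an end window and 0 in sparse windows. Their nearest neighbour lay a median of 6550 bp away, and 1 had a neighbour within 1 kb. Regions of 1 kb or more had a median nearest distance of 5062 bp, against 2432 bp for narrower ones. Of these wider regions 44.5% lay in dense windows and 2.68% in sparse windows, against 40.4% and 4.73% of the narrower ones.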

How the data were processed

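From kidney ATAC-seq of 6 rat libraries the authors deposited 1 pooled list without a header, whose 4 columns hold the chromosome, both ends and a name for each merged region. Per the submitters' processing notes the build was rn6, and FastQC, Trim Galore and cutadapt were used. Not given in the sources used here: aligner, peak caller, thresholds, transposase shift and merging rule. A threshold or merging distance would set widths, the 200 bp minimum and short gaps. Starts were read as 0-based and are printed 1-based. Genes were counted by chromosome in the RefSeq table of GRCr8, and promoters, from 250 bases before to 50 after a gene's start, came from RefSeq in the same build. No coordinate was carried between builds.

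Density was taken per Mb between the outermost regions of a chromosome. Windows of 1 Mb took regions by midpoint, and incomplete end windows, with 57 regions of chromosome 2, were left out. Gaps were measured edge to edge. Summaries used Python 3.11.15, numpy 2.4.6, pandas 2.3.3 and scipy 1.17.1 and were checked on simulated lists with planted densities and gaps. No test was made, as regions, windows and chromosomes are not replicates. The chromosome and the measures were chosen with earlier results of these data known. By a written rule the text names the 10 widest regions, the 5 fullest windows, the 5 longest gaps, the 3 longest sparse and dense runs and the 3 largest tight runs. Islands, segments and blocks, isolated regions and promoter composition were added after the list had been seen.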

Additional observations from a re-analysis of the deposited data

How the results depend on the processing

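Under 22 alternatives, 19 values stayed inside the 95% counting interval of the reported value, or within 1.5 times for domain length, and 3 did not. These intervals treat regions or windows as independent, which they are not, so they serve only as a yardstick for the size of a change. The density ratio of chromosome 2 to the other autosomes, 0.747, was 0.771 without empty stretches longer than 1 Mb. The ratio of the shares with a neighbour within 1 kb, 0.995, was 0.943 with regions of at least 300 bp alone, where 15 of 19 autosomes were higher. The ratio of regions per gene, 1.10 over all genes, was 1.21 over coding genes. Density stayed below all 19 autosomes in every list tried. These lists are subsets or joins of the regions on which chromosome 2 was chosen, so this rank is no independent support. The share of sparse windows, 33.2%, ranged up to 37.7% with windows shifted by 500 kb. The longest sparse domain was 12.5 Mb in 500-kb windows. No paired analysis was possible because libraries are pooled in the list, and no replicate could be left out for the same reason. Depth is unknown, so a stretch without regions may be closed or below the caller's threshold, and whether reads can be placed there was not tested.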
